A study of Mus musculus with 18 samples.

Results

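Loss of the RNA helicase DDX6 was examined for its effect on the place of an mRNA within polysomes, taken as its level in the high polysome over that in the low polysome. Polysome profiling separates lysate on a sucrose gradient by the number of ribosomes that an mRNA carries. Per the labels, the low polysome held mRNAs with 2 to 4 ribosomes, and the high polysome began at 4. For each gene the measure was log2(high / low), and the knockout effect was this difference in Ddx6 KO less the same difference in WT, called the change from here on. Levels were scaled within each library, so log2(high / low) is relative to the other genes, and its 0 does not mark equal amounts of RNA in the fractions. The comparison used 12 of the 18 libraries of the series, 3 gradients in each of 4 groups. It covered the 12705 of 51467 genes that reached 3 CPM (counts scaled to a common library total) in at least 3 of the 18 libraries. Of these genes, 11759 had an annotated coding length.

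All cells were V6.5 mouse embryonic stem cells (ESCs) in a medium of serum, LIF and the 2i inhibitors PD0325901 and CHIR99021. Every culture was given cycloheximide, which halts ribosomes on mRNA, at 100 ug/ml for 2 min before lysis. The 4 groups were the WT low polysome, WT high polysome, KO low polysome and KO high polysome. The KO cells were 2 clones edited in Ddx6 with CRISPR-Cas9, of which clone 1 gave gradient 1 and clone 2 gave gradients 2 and 3. With a single gradient of clone 1, clone and gradient cannot be told apart. Clones 1 and 2 were separate lines, but nothing in the sources states that the WT gradients, or those of clone 2, were separate cultures. The p-values thus measure the spread between these gradients, which may be technical within WT and within clone 2.

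DDX6 is a DEAD-box helicase that binds the CCR4-NOT deadenylase complex and decapping factors. It is found in P-bodies and has been implicated in the repression of translation, also of miRNA targets, and in the decay of mRNAs. At a given density of ribosomes, a longer coding sequence carries more of them, so the coding length bears on the fraction in which an mRNA is found.

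The 12 libraries held between 7043953 and 11474550 gene counts. Ddx6 itself, the targeted gene, was at 159, 192 and 211 CPM in the WT low polysome of gradients 1 to 3 and at 185, 199 and 182 CPM in the WT high polysome. The KO low polysome had 82.0, 20.6 and 17.6 CPM and the KO high polysome 54.9, 9.60 and 13 CPM. All 6 KO libraries lay below all 6 WT libraries, with clone 1 the highest of the KO gradients. Reads came from 3′ ends, outside the edited exon, so these levels do not check the edit itself. The change of Ddx6 in high over low polysome was -0.70 (SE 0.72, limma adjusted p = 0.632) and did not pass the threshold. The 11 naive ESC markers were all detected, with sums lower in KO without overlap, at 2947 to 3214 CPM against 3504 to 3561 CPM in the low polysome and 4073 to 4169 CPM against 4222 to 4525 CPM in the high polysome. Primed epiblast markers, 4 of 6 past the filter, were also lower in KO, at 42.5 to 49.1 CPM against 103 to 115 CPM in the low polysome and 67.4 to 82.1 CPM against 141 to 149 CPM in the high polysome. Markers of fibroblast feeders (3 of 9) were at 8.68 to 15.0 CPM, of neural cells (3 of 6) at 48.2 to 119 CPM and of mesoderm (1 of 6) at 2.09 to 6.55 CPM. The 1 of 7 primitive endoderm markers that passed, Dab2, was higher in KO without overlap, at 6.43 to 8.85 CPM against 2.79 to 5.41 CPM in the low polysome and 8.02 to 16.7 CPM against 3.18 to 4.27 CPM in the high polysome. The part of these markers in the results was not tested, and in bulk RNA fewer cells of a type and less RNA per cell cannot be told apart. The KO libraries of gradients 2 and 3 went against their numbers in one respect. In WT, the low and high libraries of a gradient deviated together from their group means, with correlations across genes of 0.32, 0.35 and 0.26. In KO the correlation was 0.48 for gradient 1, but -0.12 and -0.18 for gradients 2 and 3, while KO low 2 with KO high 3 gave 0.56 and KO low 3 with KO high 2 gave 0.17. The test of the change did not use the gradient numbers, and values for single KO gradients 2 and 3 follow the labels. With gradients 2 and 3 of KO crossed, rho of coding length and the gap between long and short genes, given further on, were 0.34, 0.35 and 0.37 and 1.32, 1.24 and 1.34 in KO.

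In limma, high over low polysome differed between KO and WT for 197 genes, with raised genes far more frequent than lowered ones. At an adjusted p under 0.05 in limma, 167 genes were raised in KO relative to WT (1.31% of those tested) and 30 were lowered (0.236%). The raised genes were long, with a median coding length of 3645 nt against 1374 nt for all genes tested. The lowered genes were shorter, with a median of 951 nt. Changes of raised genes had a median of 1.12, and 119 were over 1 on the log2 scale. For lowered genes the median was -0.84, and 7 passed 1 in size. An unadjusted p under 0.05 was found for 2435 genes (19.2%), the median change of all genes was -0.0019, and the median SE was 0.28.

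For 143 of the 167 raised genes, all 3 WT gradients had a log2(high / low) below 0, beside 40.6% of all genes. For 83 of these, all 3 KO gradients were above 0, beside 2.91% of all genes. All 30 lowered genes lay above 0 in every WT gradient, beside 38.1%, and 4 of them were below 0 in every KO gradient, beside 0.748%. Genes called for a KO value above or below WT tend to lie low or high in WT by that choice, so these counts are a description. The 2 fractions did not contribute alike. Of the raised genes, 133 were higher in the KO high polysome than in the WT high polysome, beside 23.8% of all genes, and 67 were lower in the KO low polysome, beside 22.5%. Of the lowered genes, 25 were higher in the KO low polysome, beside 22% of all genes, and 11 were lower in the KO high polysome, beside 19.4%. These 2 comparisons add up to the change itself, so they describe it and are no further evidence.

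The number of calls was sensitive to single gradients and to the model. When WT gradient 1, WT gradient 2 or KO gradient 3 was left out, 0 genes passed in limma, although 2280, 1620 and 1412 had an unadjusted p under 0.05. Without KO gradient 2 or WT gradient 3 there were 1 and 4 raised genes and 0 lowered, and leaving out KO gradient 1, which alone came from clone 1, gave 196 raised and 66 lowered. All 197 genes kept the direction of their change in each of these 6 fits, which was near certain in advance. For all 167 raised and all 30 lowered genes the KO gradients did not overlap the WT gradients. The kept direction is thus no further evidence. With each gradient as a block in the model, 544 genes were raised (4.28%) and 144 lowered (1.13%), and 196 of the 197 genes were among them. This block takes KO gradients 2 and 3 by their numbers, against the deviations of their libraries. With these crossed, 1088 genes were raised and 716 lowered, and the share of raised genes was 60.3% in place of 79.1%. The share of raised genes among the calls was 84.8% under TMM scaling, 74.3% with the size factors of DESeq2 and 65.1% with library size alone, where the median of all genes was -0.046 and -0.058.

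The 12 genes that rose most among those with a mean of at least 10 CPM had coding lengths from 1662 to 7008 nt, and 9 of them were higher in the KO high polysome. As the naming rule required, every KO gradient lay above every WT gradient in all 12, which was so for 17.7% of all genes. Their changes ranged from 1.47 to 1.76.

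Zbtb7a encodes a BTB zinc finger protein that represses transcription (ENSMUSG00000035011.15, chromosome 10, 81135220 to 81152995 on GRCm38, coding length 1710 nt). Its WT levels were 53.6, 60.5 and 58.1 CPM in the low polysome and 34.8, 34.6 and 30.2 CPM in the high polysome. The KO levels were 66.4, 79.1 and 63.0 CPM and 104, 125 and 117 CPM. The order of the fractions was thus opposite in the genotypes, with the high polysome below the low in each WT gradient and above it in each KO gradient. The change was 1.53 (SE 0.19, limma adjusted p = 0.00959), the smallest adjusted p of all genes. KO minus WT was 1.79 (SE 0.13, limma adjusted p = 2.19e-07) in the high polysome. For the low polysome it was 0.27 (SE 0.13, limma adjusted p = 0.112). Zbtb7a was also the single gene past the threshold after the trend on coding length was removed, at 1.48 (limma adjusted p = 0.0236).

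Jade1, a subunit of a histone acetyltransferase complex (ENSMUSG00000025764.14, chromosome 3, 41555731 to 41616864, 2505 nt), was at 106, 128 and 131 CPM in the WT low polysome and 68.2, 99.9 and 105 CPM in the WT high polysome. In KO it was at 146, 138 and 143 CPM and 278, 323 and 302 CPM. As for Zbtb7a, the high polysome held the difference between genotypes, and the KO high libraries were all above every other library. The change was 1.51 (SE 0.22, limma adjusted p = 0.0166).

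Prpf8, a core protein of the spliceosome (ENSMUSG00000020850.14, chromosome 11, 75486816 to 75509449, 7008 nt), had 54.2, 57.1 and 55.9 CPM in the WT low polysome and 27.9, 23.3 and 33.9 CPM in the WT high polysome. The KO values were 38.4, 45.2 and 39.0 CPM and 50.6, 80.7 and 66.8 CPM. Both fractions moved, with a lower level in the KO low polysome and a higher one in the KO high polysome. The change was 1.66 (SE 0.25, limma adjusted p = 0.0166). Ints1, a subunit of the Integrator complex (6669 nt), had log2(high / low) of -0.83, -1.36 and -0.78 in WT and 0.37, 0.38 and 1.07 in KO. Its change was 1.64 (SE 0.35, limma adjusted p = 0.0373).

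Eef2, the elongation factor that moves the ribosome along the mRNA (ENSMUSG00000034994.10, chromosome 10, 81176631 to 81182498, 2577 nt), was the most abundant of the 12. It was at 1203, 988 and 1336 CPM in the WT low polysome and 573, 392 and 557 CPM in the WT high polysome. In KO the values were 471, 695 and 467 CPM and 493, 679 and 790.0 CPM. Here the low polysome held most of the difference, since KO minus WT was -1.13 (SE 0.21, limma adjusted p = 0.000528) there. For the high polysome it was 0.36 (SE 0.21, limma adjusted p = 0.174). The change was 1.49 (SE 0.29, limma adjusted p = 0.0284). Pfkp, an isoform of the glycolytic enzyme phosphofructokinase (2355 nt), was lower in KO in both fractions. KO minus WT was -2.22 (SE 0.18, limma adjusted p = 4.18e-07) for the low polysome against -0.60 (SE 0.18, limma adjusted p = 0.0139) for the high polysome, which gave a change of 1.62 (SE 0.25, limma adjusted p = 0.0175).

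The 12 also held 3 zinc finger genes of under 2000 nt beside Zbtb7a. Zfp871 (ENSMUSG00000024298.14, chromosome 17, 32765496 to 32788287, 1848 nt) had log2(high / low) of -1.95, -2.01 and -2.35 in WT and -0.41, -0.72 and 0.06 in KO, the largest change of the 12 at 1.76 (SE 0.30, limma adjusted p = 0.0206). Zkscan3 (1662 nt) went from -1.33, -0.97 and -1.70 to 0.45, 0.21 and 0.22, a change of 1.64 (SE 0.29, limma adjusted p = 0.0223). Zkscan1 (1686 nt) went from -1.16, -1.07 and -1.14 to 0.04, 0.51 and 0.35, a change of 1.47 (SE 0.29, limma adjusted p = 0.0284). In KO every gradient of Zkscan3 and Zkscan1 was above 0, while Zfp871 reached 0 in 1 gradient and stayed below it in the other two.

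Rbl2, a member of the RB family of cell cycle inhibitors (ENSMUSG00000031666.15, chromosome 8, 91070057 to 91123844, 3408 nt), was a low-abundance gene, with 10.8, 13.7 and 17.1 CPM in the WT low polysome and 5.60, 6.05 and 6.07 CPM in the WT high polysome. The KO libraries had 11.2, 10.4 and 10.8 CPM and 14.2, 14.1 and 13.8 CPM. Its KO high values were all above its WT high values, and the low polysome ranges overlapped. The change was 1.57 (SE 0.26, limma adjusted p = 0.0182). Amer1, a scaffold protein of Wnt signalling, changed by 1.69 (SE 0.37, limma adjusted p = 0.0379), and Ppargc1b, a transcriptional coactivator of mitochondrial genes, by 1.52 (SE 0.24, limma adjusted p = 0.0175).

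**Figure D1:**
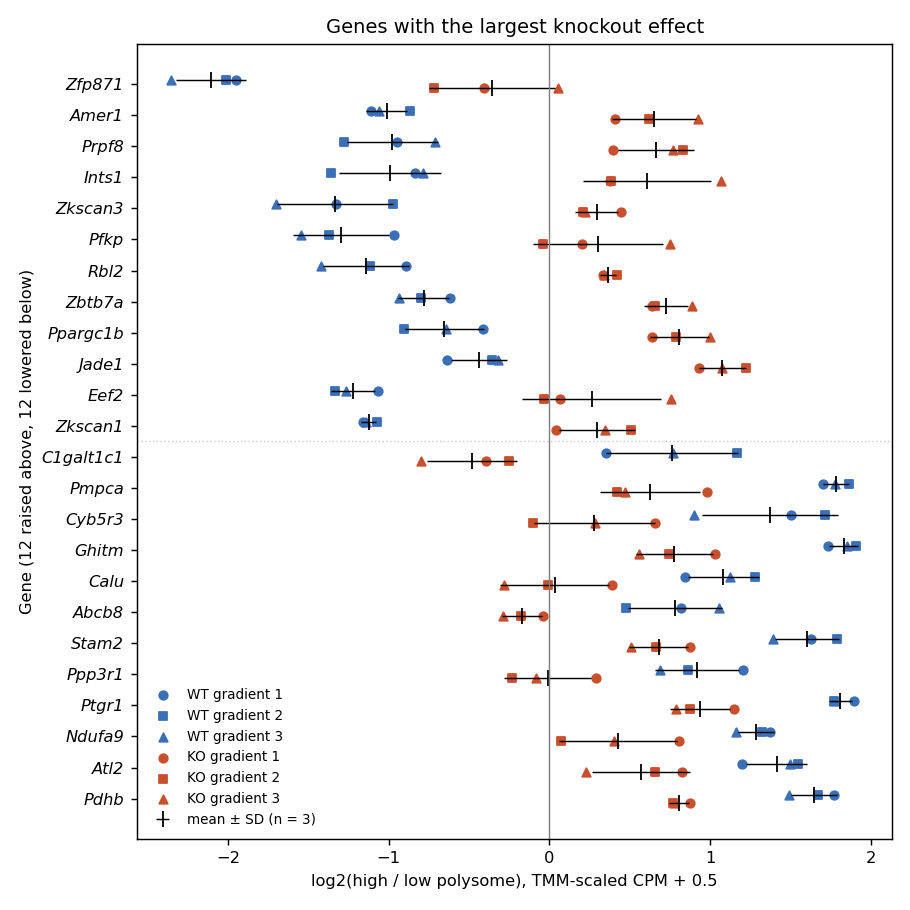
Log2(high / low polysome) in each gradient for the 12 named raised and 12 named lowered genes (x axis, log2 of TMM-scaled CPM plus 0.5, and y axis, genes). Blue marks are WT and red marks KO gradients, and black bars give the mean ± SD of 3 gradients. The WT marks lie below 0 for the raised genes and above 0 for the lowered genes, and no WT mark reaches the KO marks of its gene.

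The 12 genes that fell most among those with a mean of at least 10 CPM had coding lengths from 513 to 2154 nt. All 12 were higher in the KO low polysome. By the same rule the KO gradients were all below the WT gradients in each, which was so for 12.6% of all genes. Their changes ranged from -1.30 to -0.84, smaller in size than those of the raised genes.

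Pmpca encodes a subunit of the peptidase that cleaves targeting sequences of imported mitochondrial proteins (ENSMUSG00000026926.14, chromosome 2, 26389339 to 26397122, 1575 nt). In WT it was at 93.2, 80.5 and 81.0 CPM in the low polysome and 305, 294 and 279 CPM in the high polysome. KO cells had 156, 221 and 205 CPM and 308, 296 and 284 CPM. The high polysome ranges overlapped between genotypes, while the low polysome ranges did not. The change was -1.16 (SE 0.19, limma adjusted p = 0.0182), with a KO minus WT difference of 1.18 (SE 0.14, limma adjusted p = 1.24e-05) for the low polysome. The difference for the high polysome was 0.02 (SE 0.13, limma adjusted p = 0.931).

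Pdhb, a subunit of pyruvate dehydrogenase (ENSMUSG00000021748.8, chromosome 14, 8165996 to 8173025, 1080 nt), showed the same order. It had 71.8, 78.2 and 82.4 CPM in the WT low polysome and 246, 250.1 and 232 CPM in the WT high polysome. KO values were 111, 133 and 131 CPM and 204, 226 and 224 CPM. In either genotype its CPM was higher in the high polysome, and the distance between fractions was smaller in KO. The change was -0.84 (SE 0.17, limma adjusted p = 0.0284).

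Calu, which encodes the calcium-binding protein calumenin of the endoplasmic reticulum (ENSMUSG00000029767.16, chromosome 6, 29348069 to 29377110, 948 nt), had 632, 577 and 526 CPM in the WT low polysome and 1134, 1401 and 1146 CPM in the WT high polysome. In KO it reached 1687, 1681 and 2557 CPM and 2209.6, 1672 and 2099 CPM. Both fractions were above WT in every KO gradient, the low polysome by more. The change was -1.05 (SE 0.24, limma adjusted p = 0.0449). Cyb5r3, the NADH-cytochrome b5 reductase (942 nt), followed this pattern, at 261, 219 and 291 CPM and 739.9, 720.4 and 542 CPM in the WT low and high polysome and 687, 930.5 and 626 CPM and 1082, 868 and 762 CPM in KO. It changed by -1.09 (SE 0.26, limma adjusted p = 0.0487).

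The largest fall was that of C1galt1c1 (ENSMUSG00000048970.9, chromosome X, 38630785 to 38635087, 951 nt), a chaperone of the galactosyltransferase of O-glycan synthesis. Its log2(high / low) was 0.35, 1.17 and 0.77 in WT and -0.40, -0.25 and -0.80 in KO, so the sign differed between genotypes. The change was -1.30 (SE 0.27, limma adjusted p = 0.0339). Abcb8, a transporter of the inner mitochondrial membrane, also crossed 0, from 0.82, 0.47 and 1.05 to -0.04, -0.18 and -0.29, with a change of -0.98 (SE 0.23, limma adjusted p = 0.0469). The remaining genes were above 0 in every WT gradient and lower in KO, where Ppp3r1 alone of them had gradients below 0. They were Ghitm, a protein of the inner mitochondrial membrane, Ndufa9, a subunit of respiratory complex I, Stam2, an endosomal sorting protein, Ppp3r1, the regulatory subunit of calcineurin, Ptgr1, a prostaglandin reductase, and Atl2, a GTPase that shapes the endoplasmic reticulum. Their changes lay between -1.06 for Ghitm and -0.86 for Atl2.

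**Figure D2:**
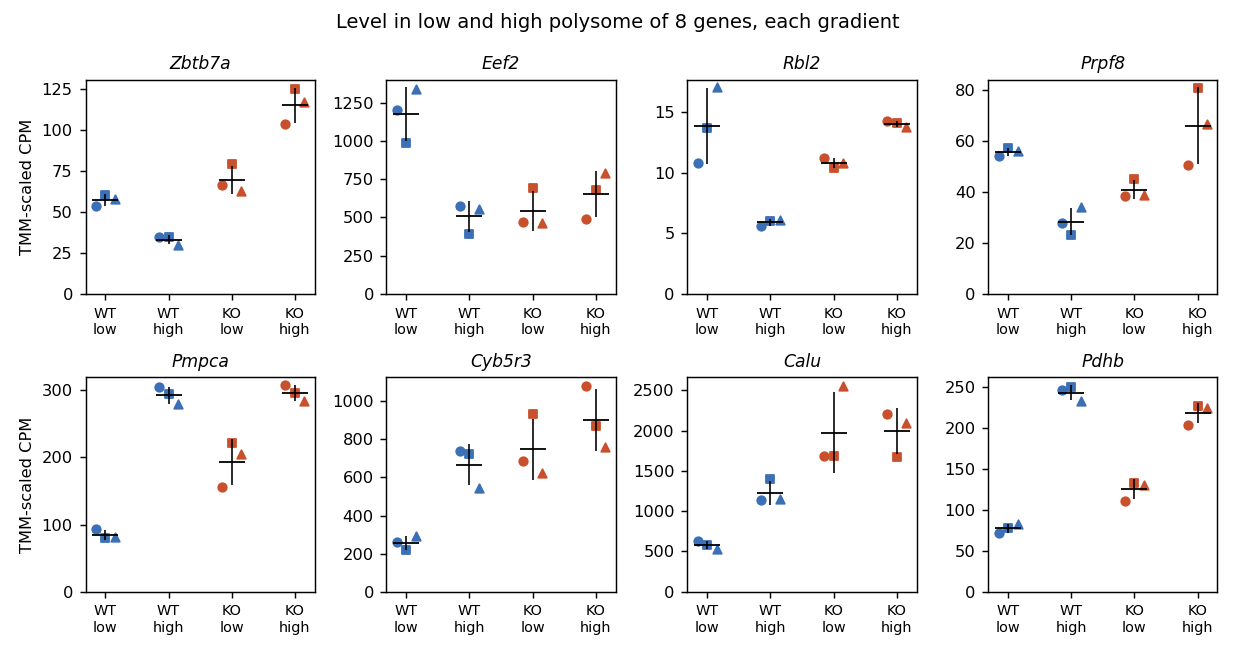
TMM-scaled CPM (y axis, from 0) in the low and high polysome of WT (blue) and KO (red) for 4 raised genes in the upper row and 4 lowered genes in the lower row. Marks are gradients 1, 2 and 3 (circle, square and triangle) and black bars the mean ± SD. In KO the high polysome of Zbtb7a was at 104 to 125 CPM against 30.2 to 34.8 CPM in WT, and the low polysome of Pmpca was at 156 to 221 CPM against 80.5 to 93.2 CPM.

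The change was then related to coding length. Across the 11759 genes with an annotated coding length, the change had a Spearman's rho of 0.40 with that length, a description across genes of the same libraries, which are not independent. The relation was not a straight one. Genes of up to 300 nt had a median change of 0.15, and those of 300 to 500 nt -0.054. The lowest median, -0.27, was that of genes of 750 to 1000 nt. Genes of 500 to 750 nt had -0.22 and those of 1000 to 1500 nt -0.16. Genes of 1500 to 2000 nt had a median of 0.014. Those of 2000 to 3000 nt reached 0.21, those of 3000 to 5000 nt 0.45, and the longest genes, past 5000 nt, 0.68. DESeq2 size factors and library size alone kept the sign of each of these medians except that from 1500 to 2000 nt, which became -0.031 and -0.041.

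The calls followed the same course. Of the 167 raised genes, 115 (68.9%) had a coding length over 3000 nt, a class that held 13.8% of the genes with a coding length. Genes over 5000 nt were raised in 48 of 504 cases (9.52%), and those of 3000 to 5000 nt in 67 of 1114 (6.01%), beside 1.31% of all genes. Of the 30 lowered genes, 25 were between 500 and 1500 nt and 0 were over 3000 nt. No gene of up to 500 nt was called in either direction, although 218 of up to 300 nt and 790 of 300 to 500 nt were tested. For 68.1% of the genes over 5000 nt every KO gradient lay above every WT gradient, beside 17.7% of all genes. From 750 to 1000 nt the KO gradients were all below WT for 25.2%, beside 12.6% of all genes. Raised genes of up to 1500 nt numbered 5, namely Bcl7a (633 nt), Calb2 (816 nt), Mat2a (1188 nt), Prrc1 (1332 nt) and Eef1a1 (1389 nt), listed here because of their length. By the naming rule, 0 raised genes had up to 600 nt and 0 lowered genes had over 3000 nt.

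**Figure D3:**
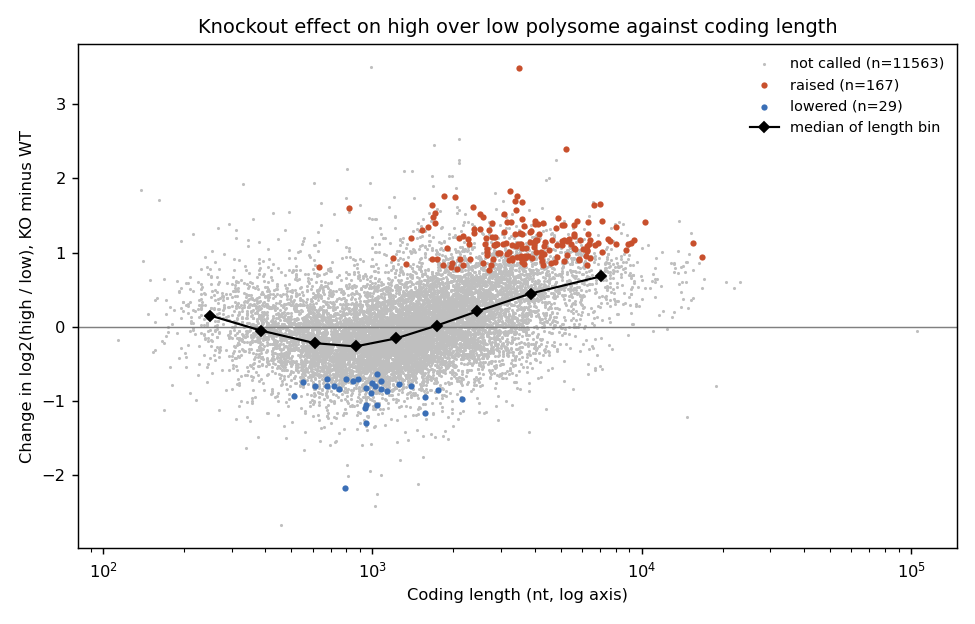
Change in log2(high / low polysome), KO minus WT (y axis), against coding length in nt (x axis, log scale) for 11759 genes. Red points were raised and blue points lowered at an adjusted p under 0.05 in limma, grey points were not called, and diamonds give the median of each length bin. The medians fall to -0.27 at 750 to 1000 nt and rise to 0.68 over 5000 nt.

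The levels behind the change differed in shape between genotypes. In WT, the median log2(high / low) rose with length to 0.31 ± 0.027 (SD, n = 3 gradients) at 1000 to 1500 nt, and then fell to -0.15 ± 0.029 at 3000 to 5000 nt and -0.53 ± 0.038 over 5000 nt. In KO it rose to 0.34 ± 0.036 at 2000 to 3000 nt and was still 0.27 ± 0.047 and 0.14 ± 0.045 in the longest bins. For genes over 5000 nt the single gradients gave -0.51, -0.50 and -0.57 in WT and 0.11, 0.12 and 0.19 in KO, with no overlap. For genes of 300 to 500 nt the genotypes overlapped, at -1.01, -1.04 and -0.82 in WT and -1.01, -0.89 and -0.98 in KO. From 750 to 1000 nt the WT gradients had 0.22, 0.23 and 0.22 and the KO gradients 0.060, -0.022 and -0.086. WT and KO gradients thus differed in opposite directions for medium and long genes.

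The median of genes over 3000 nt less that of genes of 1000 to 1500 nt was -0.55, -0.58 and -0.59 in WT. In KO it was -0.070, 0.087 and 0.16. The mean was -0.57 ± 0.018 in WT and 0.061 ± 0.12 in KO, a difference of 0.63 (two-sided exact permutation p = 0.1, the smallest that 3 against 3 allows). Among genes over 1000 nt, rho of log2(high / low) with coding length was -0.23, -0.24 and -0.23 in WT and -0.011, 0.063 and 0.11 in KO (exact permutation p = 0.1). Within genes of up to 1000 nt it was 0.49, 0.48 and 0.40 in WT and 0.53, 0.40 and 0.49 in KO, which overlapped (exact permutation p = 0.8). Over all lengths rho was 0.11, 0.10 and 0.049 in WT and 0.34, 0.30 and 0.40 in KO (exact permutation p = 0.1). The median gap between genes over 3000 nt and genes of up to 500 nt was 0.83 ± 0.18 in WT and 1.28 ± 0.090 in KO (exact permutation p = 0.1). With 11 such relations computed, the Benjamini-Hochberg adjusted value of each p of 0.1 was 0.183.

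**Figure D4:**
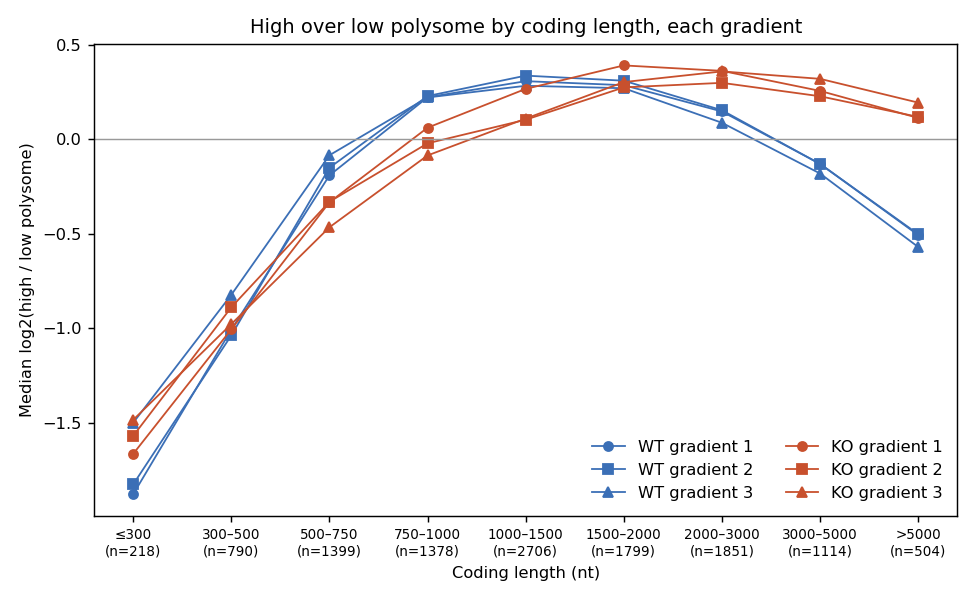
Median log2(high / low polysome) of genes in 9 bins of coding length (x axis, nt, with the number of genes) for each of the 3 WT (blue) and 3 KO (red) gradients. The WT lines peak at 1000 to 1500 nt and fall to between -0.57 and -0.50 over 5000 nt, where the KO lines stay between 0.11 and 0.19.

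Both fractions took part in the difference by length. Genes over 5000 nt had a median KO minus WT difference of -0.34 for the low polysome, against 0.33 for the high polysome. For genes of 750 to 1000 nt it was 0.11 and -0.16. Genes of up to 300 nt were lower in KO in both fractions, with medians of -0.56 and -0.46, and had the smallest number of genes, 218.

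Other features of the transcript were set beside coding length. Across genes, rho with the change was 0.0025 for 3′ UTR length, 0.0016 for 5′ UTR length, 0.069 for GC content of the coding sequence and 0.0088 for that of wobble positions of codons. For the number of exons it was 0.30, and exon number and coding length had a rho of 0.75 with each other. For mean abundance rho was -0.17, and -0.14 with the length trend removed. Exon number separated the genotypes by gradient as coding length did, with rho of 0.11, 0.11 and 0.048 in WT and 0.28, 0.26 and 0.33 in KO. Mean abundance did so too, with 0.16, 0.14 and 0.11 in WT and 0.091, 0.027 and 0.054 in KO (exact permutation p = 0.1 for either feature). For 3′ UTR length the values overlapped, at 0.028, 0.049 and 0.0093 in WT and 0.041, 0.051 and 0.012 in KO. Among genes over 3000 nt, sets of equal size with short, medium and long 3′ UTRs had median changes of 0.56, 0.47 and 0.51. For genes of 500 to 1000 nt these were -0.17, -0.27 and -0.27, and for genes of 1000 to 2000 nt -0.075, -0.11 and -0.084. Within the bins up to 300 nt, 300 to 500 nt and 500 to 750 nt, rho of 3′ UTR length with the change was -0.22, -0.14 and -0.12.

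When the trend of log2(high / low) on coding length was removed from every gradient, 1 gene was raised and 0 were lowered, with 1468 genes at an unadjusted p under 0.05. With the gradient as a block in the same fit, chosen after seeing the data, there were 10 raised and 4 lowered genes. Of the 197 called genes, 196 had a coding length and all 196 kept their direction. The trend depends on coding length alone, so the amount removed from a gene follows from its length and is no property of the gene. It was small for Zfp871 (1848 nt, 1.76 before and 1.67 after), Zkscan3 (1662 nt, 1.64 and 1.61) and Pmpca (1575 nt, -1.16 and -1.15). Shorter lowered genes lost more, as for Ptgr1 (990 nt, -0.90 and -0.68), Pdhb (1080 nt, -0.84 and -0.64) and C1galt1c1 (951 nt, -1.30 and -1.07). The raised gene Eef1a1 (1389 nt) gained instead (1.19 and 1.28). Long raised genes lost more as well, as for Prpf8 (1.66 and 1.0), Ints1 (1.64 and 0.99) and Eif4g1 (1.33 and 0.79).

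Gene lists by function were described by counts of called genes and by their median change, beside the median of -0.0019 over all genes. Of 30 lists, 14 held a called gene, with 24 raised calls and 1 lowered call in all. Beside these counts and those of each list, 1.31% of all genes were raised and 0.236% lowered. The lists were ordered by coding length as single genes were. All 6 lists with a median coding length over 2000 nt had a positive median change, and 8 of 11 lists with a median of up to 1000 nt had a negative one.

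Chromatin remodellers and lysine methyltransferases, large enzymes that move nucleosomes or modify histones, had a median coding length of 7065 nt. All 28 tested members had a positive change, with a median of 0.72, and 4 were raised beside 1.31% of all genes. These were Ep400 at 1.13 (SE 0.17, limma adjusted p = 0.0166), Arid1a at 1.13 (SE 0.20, limma adjusted p = 0.0206), Kmt2d at 0.94 (SE 0.17, limma adjusted p = 0.0249) and, outside the naming rule, Smarca4 (1.10). With the gradient block 13 members were raised, beside 4.28% of all genes. The most abundant member, Chd4, changed by 0.91 (SE 0.30, limma adjusted p = 0.12) without passing. Removal of the length trend left a median of 0.047. Arid1a had 107, 110.2 and 106 CPM in the WT low polysome and 71.0, 70.4 and 84.2 CPM in the WT high polysome, and 103, 98.2 and 93.7 CPM and 121, 162 and 170.0 CPM in KO.

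Dynein, kinesin and myosin heavy chains, the motors of the cytoskeleton, were recognised by symbol, which also took in the kinesin-binding protein Kif1bp. Of 54 genes, 46 had a positive change, the median was 0.54, and 5 were raised, beside 1.31% of all genes. They included Kif1b at 1.11 (SE 0.21, limma adjusted p = 0.0249), Myo10 at 0.96 (SE 0.20, limma adjusted p = 0.0327) and Myo18a at 1.03 (SE 0.23, limma adjusted p = 0.0415), and, outside the naming rule, Kif3a (1.23) and Myo9b (1.12). Laminins, collagens and fibronectin, secreted proteins of the extracellular matrix, had a median of 0.78 over 28 genes, of which Lamb3 was raised. Lamb3 had a mean of 1.43 CPM, so its change of 3.48 (SE 0.80, limma adjusted p = 0.0451) rests on few counts. Lamc1, the most abundant of this list, changed by 0.70 (SE 0.26, limma adjusted p = 0.164). With the trend removed the medians were 0.097 for motors and 0.24 for matrix genes.

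The 7 Argonaute and TNRC6 genes, which act in miRNA silencing and bind or recruit the partners of DDX6, had positive changes in every member, with a median of 0.65, and 0 were called in limma, with 3 at an unadjusted p under 0.05, beside 19.2% of all genes. With the length trend removed the median was 0.13, and Ago1 and Ago2 were at -0.027 and -0.13. The TNRC6 genes, named after their values were seen, were at 1.06 for Tnrc6b, 0.98 for Tnrc6a and 0.74 for Tnrc6c, all with over 5000 nt, where the median of all genes was 0.68, and the most abundant Argonaute gene, Ago2, at 0.12. With the gradient block the 3 TNRC6 genes were raised, beside 4.28% of all genes. The CCR4-NOT subunits (11 genes, median 0.028) and the decapping and P-body partners of DDX6 (10 genes, median 0.018) held 0 called genes in limma, with 5 and 2 at an unadjusted p under 0.05 (19.2% of all genes), and the sign of both medians turned with library size alone (-0.024 and -0.036). Cnot1, the scaffold of CCR4-NOT, changed by 0.09 (SE 0.19, limma adjusted p = 0.847) with a coding length of 7131 nt, and was at -0.58 with the length trend removed.

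Proteasome subunits had the lowest median of the 30 lists. Of 37 subunits, 35 had a negative change, and the median was -0.44, yet 0 passed the threshold in either direction and 21 had an unadjusted p under 0.05, beside 19.2% of all genes. The positive members, named for their sign, were Psmd1 (0.54), which has the longest coding sequence of the list at 2862 nt, and the immunoproteasome subunit Psmb10 (1.07). Psmd8, the most abundant subunit, had 868, 752 and 729.6 CPM in the WT low polysome and 1181, 892 and 891 CPM in the WT high polysome. Its KO levels were 1127, 1316 and 1411 CPM and 1154, 1031 and 1107 CPM. The change of Psmd8 was -0.55 (SE 0.20, limma adjusted p = 0.154). With the gradient block 3 subunits were lowered and 1 was raised, beside 1.13% and 4.28% of all genes. The list's median was -0.28 with the trend removed, the lowest of the 30 lists there too.

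Genes of the translation machinery went in several directions. Of 42 initiation factors, 3 were raised, beside 1.31% of all genes, namely Eif4g1, the scaffold of the cap-binding complex, at 1.33 (SE 0.23, limma adjusted p = 0.0225), its paralog Eif4g3 at 1.16 (SE 0.27, limma adjusted p = 0.0449) and Eif4b, a helicase cofactor, at 0.84 (SE 0.16, limma adjusted p = 0.0284), while the list had a median of -0.13. Of 9 elongation factors and associated genes, Eef2 and Eef1a1 were raised. Eef1a1 delivers aminoacyl-tRNA to the ribosome and changed by 1.19 (SE 0.27, limma adjusted p = 0.0449), from log2(high / low) of 0.02, -0.14 and -0.28 in WT to 1.02, 0.95 and 1.18 in KO. Eef1a1 has many near-identical pseudogene copies, and only unique alignments were counted, so its level is uncertain. Eif5a, the most abundant gene of the list, was at -0.54 (SE 0.18, limma adjusted p = 0.137). Of 20 aminoacyl-tRNA synthetases, 16 had a positive change (median 0.29), and Aars, the alanyl-tRNA synthetase, was raised at 1.11 (SE 0.20, limma adjusted p = 0.0245). The 77 cytosolic ribosomal proteins had a median of 0.12 and the 77 mitochondrial ones -0.24. Limma called 0 in both lists, with 3 and 18 at an unadjusted p under 0.05 (19.2% of all genes). For the cytosolic list, median log2(high / low) overlapped between genotypes, at -0.31, -0.28 and -0.20 in WT and -0.20, -0.057 and -0.48 in KO. The mitochondrial list did not overlap, at 0.20, 0.030 and 0.077 in WT and -0.26, -0.23 and -0.33 in KO. The ribosomal protein genes also have pseudogene copies.

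Lists of short genes with other functions had medians on both sides of 0. The median was -0.29 for 46 RAB GTPases and for 30 ubiquitin-conjugating enzymes, -0.30 for 9 histone variants, -0.22 for 10 SR splicing factors and -0.13 for 22 subunits of mitochondrial import. It was 0.031 for 15 core Sm and LSM proteins and 0.040 for 12 subunits of RNA polymerase II. Library size alone turned both of these to -0.023 and -0.011. The Sm and LSM list had the shortest coding sequences (median 312 nt). It held 0 called genes and 3 at an unadjusted p under 0.05, beside 19.2% of all genes. In the E2 list, Ube2o, a large E2 enzyme of 3867 nt, was raised at 1.29 (SE 0.26, limma adjusted p = 0.0288). Within RNA polymerase II the largest subunit, Polr2a (5913 nt), was raised at 1.17 (SE 0.25, limma adjusted p = 0.0377), whereas the most abundant, Polr2e (633 nt), was at -0.046. Of 80 nuclear genes of the respiratory chain and ATP synthase, Ndufa9 was lowered at -0.86 (SE 0.19, limma adjusted p = 0.0382) and the median was -0.059.

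Lists of medium coding length had medians from -0.17 to 0.27. The anaphase-promoting complex (14 genes, median 0.18) had Anapc1 (5835 nt) as the 1 raised subunit at 0.91 (SE 0.20, limma adjusted p = 0.0421), and the most abundant subunit, Anapc11 (255 nt), was at -0.10. Glycolysis (15 genes, median 0.055, and -0.0042 with library size alone) had 2 raised genes, Pfkp and Hk2, the latter at 0.83 (SE 0.18, limma adjusted p = 0.0394), and Aldoa, the most abundant, at -0.28. Solute carriers (214 genes, median -0.087) had 1 raised gene, beside 1.31% of all genes. It was the glutamine transporter Slc1a5 at 0.92 (SE 0.21, limma adjusted p = 0.043). Numbered zinc finger proteins (259 genes, median 0.27, and 0.16 with the trend removed) had Zfp871 as the 1 raised gene, beside 1.31% of all genes. Replication licensing genes (15, median 0.19) had Mcm10 at 0.97 (SE 0.22, limma adjusted p = 0.0421). Pluripotency transcription factors (12 genes, median -0.024), CCT chaperonin subunits (8, median 0.14), heat shock and ER chaperones (15, median -0.028) and cholesterol synthesis genes (18, median -0.17) held 0 called genes in limma. At an unadjusted p under 0.05 they held 2, 0, 3 and 7 genes in this order, beside 19.2% of all genes. Klf4, the most abundant pluripotency factor, changed by 0.02 (SE 0.22, limma adjusted p = 0.976).

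**Figure D5:**
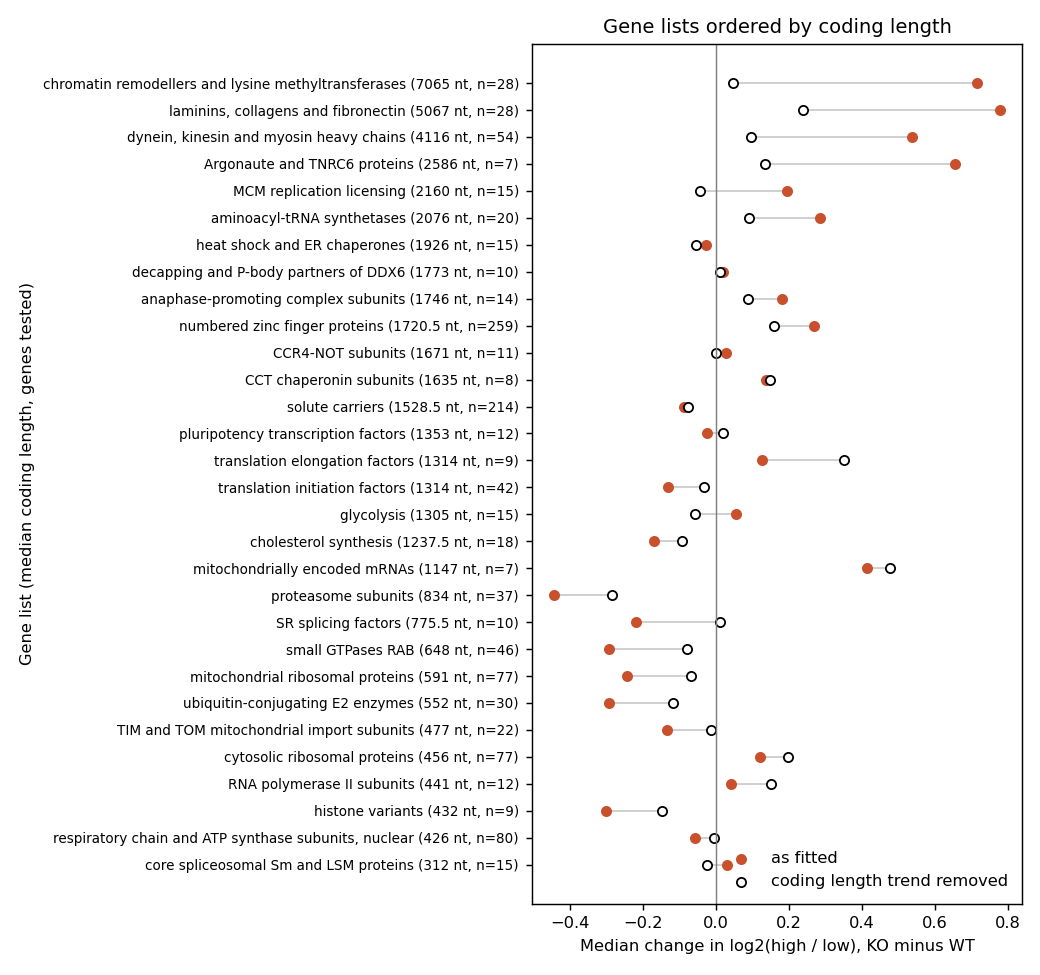
Median change in log2(high / low polysome), KO minus WT (x axis), of 30 gene lists (y axis, ordered by median coding length, with the number of genes tested). Filled marks are the fitted change and open marks the change with the trend on coding length removed. Medians run from -0.44 to 0.78 as fitted and from -0.28 to 0.48 with the trend removed, when 19 of the 30 lists lie within 0.1 of 0, against 9 before.

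Genes with sites for the ESCC miRNAs, the main miRNA family of ESCs, were described because DDX6 acts in miRNA repression. Mature sequences with the seed of this family are shown with their seed (bases 2 to 8) in capitals, from RefSeq on GRCm38. They need not be all of its members.
mmu-miR-291a-3p: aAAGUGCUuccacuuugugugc
mmu-miR-294-3p: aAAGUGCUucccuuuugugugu
mmu-miR-295-3p: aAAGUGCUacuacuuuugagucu
mmu-miR-302b-3p: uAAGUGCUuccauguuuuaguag
mmu-miR-302d-3p: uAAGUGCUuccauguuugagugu
A site was the 8 bases AGCACTTA, complementary to this seed and followed by an A, on the transcript strand of an annotated 3′ UTR. Of the 11759 genes, 442 had such a site, and 9193 had neither this site nor either of its 7-base parts. The median change was 0.067 with a site and -0.032 without, or 0.040 and -0.023 once the length trend was taken out. Of genes with a site, 12 (2.71%) were raised and 0 lowered, and of genes without, 124 (1.35%) were raised and 27 lowered. The raised genes with a site were Rbl2, Zkscan1, Sec16a, Nfib, Cgas, Trps1, Lrch3, Lpin1, Kif1b, Cluh, Eif4b and Hcfc1, with changes from 1.57 down to 0.83.

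Coding length differed little between these sets, with medians of 1578 and 1332 nt, but most raised genes were long in both. Over 2000 nt, 8 of 159 genes with a site were raised (5.03%) and 118 of 2592 without (4.55%). From 1000 to 2000 nt, 4 of 175 genes with a site (2.29%) and 5 of 3481 without (0.144%) were raised. Median changes in that range were -0.029 and -0.11. In WT the genes of this range with a site had a median log2(high / low) of 0.20, 0.19 and 0.10, and those without 0.35, 0.36 and 0.35. In KO the gradients were at 0.23, 0.25 and 0.14 with a site and 0.34, 0.18 and 0.21 without. In this range the sets were apart in each WT gradient and overlapped in KO, which was not so at other lengths. Over 2000 nt they were apart in both genotypes, at -0.32, -0.27 and -0.37 with a site and 0.0034, -0.017 and -0.050 without in WT, and 0.18, 0.072 and 0.064 against 0.31, 0.30 and 0.37 in KO. Up to 1000 nt the genes with a site were the higher ones in WT, at -0.023, 0.056 and -0.062 against -0.32, -0.29 and -0.18, and their median change was the lower one, at -0.23 against -0.17. A site is a match of letters and does not show that a miRNA acts there, and no test was made of these sets.

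The 4 genes of 1000 to 2000 nt are shown with Rbl2, in lower case with the site in capitals, from Gencode M21 transcripts on GRCm38, 5′ to 3′ on the strand of the gene. The windows lie at chr8:91123819-91123844 (+) for Rbl2, chr5:138105646-138105675 (+) for Zkscan1, chr9:78431912-78431941 (-) for Cgas, chr15:102096080-102096109 (+) for Eif4b, and chr4:82296536-82296565 (-) and chr4:82295674-82295703 (-) for Nfib.
Rbl2: tttttcaataaAGCACTTAtaaatta
Zkscan1: cctgtgatcccAGCACTTAggaagtagagg
Cgas: caatcgttaacAGCACTTAttgctcttccg
Eif4b: ctggatgaggaAGCACTTAacaggtagtga
Nfib first site: accagcattgcAGCACTTAcagtcactaat
Nfib second site: attgaaaacacAGCACTTAggttggcttag
The site of Rbl2 starts at base 1384 of a 3′ UTR of 1398 bases, close to the annotated end, and those of Nfib at bases 128 and 990 of 6509. Nfib, a transcription factor of the nuclear factor I family, changed by 1.40 (SE 0.27, limma adjusted p = 0.0284), and Cgas, a sensor of cytosolic DNA, by 1.31 (SE 0.27, limma adjusted p = 0.0330). After removal of the length trend the changes were 1.44 for Zkscan1, 1.35 for Nfib, 1.34 for Cgas, 1.18 for Rbl2 and 0.75 for Eif4b.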

How the data were processed

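QuantSeq 3′ FWD libraries were made from gradient fractions, so each read marks a 3′ end and CPM was not divided by length. The authors trimmed reads with Cutadapt 1.14, aligned them with STAR 2.5.3a to mm10, kept unique alignments and deposited counts per gene from featureCounts 1.5.3 by strand (Gencode M14). PCR copies are among the counts. Coding lengths (longest basic coding transcript, stop codon included) came from Gencode M21 on the same assembly, in which 51274 of 51467 identifiers were found. ERCC rows were dropped. Counts were fitted as 4 group means with voom in limma 3.58.1 (R 4.3.3) after TMM scaling (edgeR 4.0.16), and p-values were adjusted by Benjamini-Hochberg over 12705 genes. The study's methods gave limma and the interaction term, for high polysome over monosome. Monosome libraries entered only the filter. Depth was 7043953 to 11474550 counts per library. Ratios of single gradients used a pseudocount of 0.5 CPM. The length trend was a lowess fit (span 0.3) per gradient on log10 coding length. Exact permutation tests were two-sided.

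Named genes were Ddx6, the 12 largest changes per direction among called genes with non-overlapping gradients and 10 CPM or more on average, up to 4 exceptions by length, and up to 3 called genes per direction and the most abundant gene of each list. Other genes are named where said. The comparison, lists and tests were chosen with earlier results of these data known. Gradient numbers were read as pairs because each gradient gave all fractions, although the deviations of KO gradients 2 and 3 did not follow them. Alternatives were other scalings, filters and models, including edgeR and DESeq2 1.42.0.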

Additional observations from a re-analysis of the deposited data

Results flagged for a closer look

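The effect of fraction differed between genotypes by the test of the interaction for 167 genes with a larger high over low difference in KO and 30 with a smaller one, in limma at an adjusted p under 0.05. Spike-in sequences, which no comparison used, held 725 counts over the 12 libraries, from 28 to 169 a library, where a count of 0 allows up to 3. Groups of 3 gradients were too small for a check of single outlying samples.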

How the results depend on the processing

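Counts of raised and lowered genes, 167 and 30, moved with the processing. Raised genes numbered 107 with DESeq2 size factors, 108 with library size alone (58 lowered), 410 with the DESeq2 Wald test (284 lowered), 29 without a filter (5 lowered), 431 in a joint fit to 18 libraries (131 lowered) and 64 at equal depth. Fits that left out a gradient gave 0 to 196 raised and 0 to 66 lowered. The gradient as a replicate block gave 544 and 144, and the number shared across genotypes as a block gave 197 and 24. Removing the coding length trend gave 1 and 0, and alone took Cnot1 from 0.09 to -0.58. The cause of these shifts was not tested. The fit without a filter held more genes, and fits without a gradient held fewer libraries. Chosen after seeing the data were KO clone 1 alone (0 and 0), the replicate block with the trend removed (10 and 4), and, with KO gradients 2 and 3 crossed, the block (1088 and 716) and the block with the trend removed (370 and 387), in which Cnot1 turned from 0.09 to -0.58. Over all of these settings each of the 197 genes kept its direction wherever it was fitted. In fits without a gradient this was near certain, as the KO and WT gradients of these genes did not overlap. The difference in rho and in the gap between long and short genes stayed positive, from 0.23 to 0.28 without one gradient against 0.26, and from 0.34 to 0.51 against 0.45. Of the 30 lists 17 had a positive median, 13 with DESeq2 size factors, 12 with library size alone, 17 with the replicate block and 15 with the trend removed. Counts within each genotype and fraction stayed within 1.5 times in every setting run. Genes of few CPM, such as Lamb3, are limited by depth, as are those of up to 300 nt by their number.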

Other observations

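Genes that moved apart from others of their length were looked for after seeing the values, with the trend on coding length removed and the gradient as a block. The block takes KO gradients 2 and 3 by their numbers, which the deviations of their libraries did not follow. With these crossed, 757 genes passed, among them all 14 genes of the fit by number, with the same sign. Both fits used the same libraries, so this is no independent check. Raised beyond the trend were Zfp871, Zkscan3, Zbtb7a, Zbtb37, Amer1, Jade1, Eef1a1, Mat2a, Bcl7a and Plekhg3, from 1.69 for Zfp871 down to 0.95 for Plekhg3. Zbtb37, a further BTB zinc finger gene of 1515 nt, had log2(high / low) of -2.14, -1.97 and -1.94 in WT and -0.55, -0.69 and -0.72 in KO, and did not pass in the fit without block and trend (1.36, SE 0.43, limma adjusted p = 0.109). Mat2a, the enzyme of S-adenosylmethionine synthesis, went from -0.94, -0.71 and -0.73 to -0.0048, 0.11 and 0.29. Lowered beyond the trend were Abcb1a, 2610507B11Rik, Pmpca and Mprip. Abcb1a, a drug efflux transporter of 3831 nt, was at -0.21, -0.41 and -0.29 in WT and -0.86, -1.14 and -1.44 in KO, opposite to most genes of its length, with a change of -0.87 in the fit without block and trend (SE 0.24, limma adjusted p = 0.0710). 2610507B11Rik (6705 nt) went from -0.084, -0.0031 and -0.24 to -0.69, -0.48 and -0.84.

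Long noncoding and small nucleolar RNAs have no coding length and were not part of that relation. The 447 lncRNAs were low in the high polysome relative to other genes, with median log2(high / low) of -1.48, -1.42 and -1.28 in WT and -1.10, -1.06 and -0.94 in KO, which did not overlap. Their median change was 0.27, and 0 were called in either direction, beside 1.31% of all genes raised and 0.236% lowered. Their median abundance was 2.69 CPM, below the 3 CPM of the filter, which also counted the monosome libraries. The 38 small nucleolar RNA genes had a median change of 0.46, with 0 called beside the same shares of all genes. Median log2(high / low) of this class overlapped between genotypes, at -1.20, -1.52 and -1.15 in WT and -1.18, -0.81 and -0.66 in KO. The median abundance was 1.31 CPM. Cytosolic ribosomes do not translate the mitochondrially encoded mRNAs, of which 7 of 13 passed the filter. All 7 had a positive change (median 0.41), with 0 called and 1 at an unadjusted p under 0.05, beside 19.2% of all genes. Their median log2(high / low) overlapped between genotypes, at -1.91, -1.94 and -1.40 in WT and -1.20, -1.63 and -1.38 in KO. The most abundant, mt-Co1, changed by 0.17 (SE 0.35). One called gene had no coding length, the processed pseudogene Tdpx-ps1, at -1.25 (SE 0.29, limma adjusted p = 0.0461).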
